A study of Homo sapiens with 2 samples.

Results

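Distal intronic peaks were the peaks of a MYBL2 chromatin immunoprecipitation sequencing (ChIP-seq) list whose summit lay inside an intron of the canonical transcript of a protein-coding gene, in no annotated exon, and more than 10000 bp from every transcription start site (TSS) of a protein-coding or lncRNA gene. They numbered 12165 of the 66954 peaks, or 18.2% (95% exact binomial interval 17.9 to 18.5). The study immunoprecipitated chromatin of A673, an established Ewing sarcoma cell line that carries the EWSR1-FLI1 fusion, under standard culture with no treatment. The antibody was labelled as anti-MYBL2, and the methods of the study describe it as one against the phosphorylated, activated protein. The 2 libraries were 1 MYBL2 ChIP and 1 input of sheared chromatin from the same line, so that each group had 1 library and no replicate, and no difference between conditions was tested. The list holds the peaks of 1 antibody in 1 line.

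MYBL2 (B-MYB) is a transcription factor of dividing cells. It joins the MuvB complex at promoters of genes for the G2 and M phases, where MuvB contacts a CHR element and MYB proteins can bind a TAAC core. Introns are removed from the transcript, and yet they hold many enhancers, which are bound by factors such as AP-1, TEAD, ETS and E-box proteins and can act on a promoter far away. Introns make up most of a long gene, so RNA polymerase spends most of its passage through such a gene in them.

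The sequences below reach 50 bp to either side of the summit of the strongest member that held each of the 12 motifs found more often at summits than beside them, as described further on, with 1 chromosome left out of the choice. They are shown because they are what the motif results rest on at their strongest members. All are on the plus strand of GRCh37 (hg19), 5′ to 3′, with position 1-based, and the capitals mark the letters of the named motif on either strand. A match describes the letters and is not evidence of a binding site.
H6PD intron 3, chr1:9313303-9313403, TEAD site: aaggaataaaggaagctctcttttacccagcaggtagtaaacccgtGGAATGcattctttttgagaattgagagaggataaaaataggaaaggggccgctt
JAZF1 intron 2, chr7:27973553-27973653, MYB site: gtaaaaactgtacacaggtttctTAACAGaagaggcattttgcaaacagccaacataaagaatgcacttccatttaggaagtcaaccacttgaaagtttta
PTPRS intron 1, chr19:5309078-5309178, NFI site: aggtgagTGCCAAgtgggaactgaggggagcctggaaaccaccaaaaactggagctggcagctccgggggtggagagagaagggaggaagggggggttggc
BTRC intron 4, chr10:103245903-103246003, CCAAT box: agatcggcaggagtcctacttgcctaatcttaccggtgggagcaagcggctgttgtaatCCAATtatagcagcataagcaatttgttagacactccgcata
EFR3B intron 1, chr2:25299617-25299717, short ETS core: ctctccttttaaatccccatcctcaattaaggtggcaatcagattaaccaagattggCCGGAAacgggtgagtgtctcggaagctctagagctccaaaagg
TEAD1 intron 2, chr11:12745094-12745194, SOX site: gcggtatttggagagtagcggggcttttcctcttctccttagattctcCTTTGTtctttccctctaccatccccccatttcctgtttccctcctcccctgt
JARID2 intron 1, chr6:15365766-15365866, E-box CAGCTG: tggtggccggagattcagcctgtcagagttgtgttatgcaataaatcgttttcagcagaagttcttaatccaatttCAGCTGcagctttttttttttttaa
JARID2 intron 3, chr6:15439814-15439914, GATA site: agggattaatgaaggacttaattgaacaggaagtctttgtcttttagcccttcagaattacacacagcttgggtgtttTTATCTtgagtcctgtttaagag
SYT14 intron 6, chr1:210297711-210297811, AP-1 site: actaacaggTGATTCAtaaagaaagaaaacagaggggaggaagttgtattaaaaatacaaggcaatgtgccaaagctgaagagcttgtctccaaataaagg
PHTF2 intron 5, chr7:77523899-77523999, homeobox site: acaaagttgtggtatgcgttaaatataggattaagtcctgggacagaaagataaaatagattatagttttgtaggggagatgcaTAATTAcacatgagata
FRMD4A intron 2, chr10:14227655-14227755, E-box CAGATG: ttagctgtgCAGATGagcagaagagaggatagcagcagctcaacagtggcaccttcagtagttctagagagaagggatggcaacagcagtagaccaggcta
ADK intron 6, chr10:76199138-76199238, CHR element: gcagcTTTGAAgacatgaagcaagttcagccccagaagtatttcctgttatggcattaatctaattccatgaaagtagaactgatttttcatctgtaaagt

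The first 4 of these summits also led the whole class. The peak in intron 3 of H6PD, which encodes an enzyme of the endoplasmic reticulum that makes NADPH, had a fold enrichment of 24.8, with 130 fragments at the summit (95% exact Poisson interval 109 to 154) over a local background of 4.28. Fold enrichment, a value the authors deposited, divides the number of fragments over the summit plus 1 by the number expected there from the input plus 1. The peak in intron 2 of JAZF1, a zinc finger cofactor gene, had 118 fragments and a fold enrichment of 23.4. The peak in intron 1 of PTPRS, a receptor tyrosine phosphatase gene, reached 21.4, and that in intron 4 of BTRC, the F-box subunit of a ubiquitin ligase, reached 21.2. These peaks stood far above the ordinary member, since the middle of the class had a fold enrichment of 3.45.

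The next strongest members were in SHISA6 intron 3 (19.4), which encodes an AMPA receptor partner, and in SOX6 intron 13 (19.0), a transcription factor gene known as a target of the Ewing fusion. JARID2 intron 3, in a gene for a cofactor of the Polycomb complex PRC2, followed at 17.9. OTOGL intron 8 (17.3), EFR3B intron 1 (16.9) and TEAD1 intron 2 (16.9) completed the 10 strongest members. Their summits lay 12236 to 110801 bp from the nearest TSS, and 4 of the 10 had no other distal intronic peak within 12.5 kb. None of the 10 was within 1000 bp of the start of a gene of another type, such as a pseudogene or small RNA gene, the closest being a processed pseudogene 4891 bp from the EFR3B summit.

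The other summits printed above were lower in fold enrichment. JARID2 intron 1, with the E-box CAGCTG, reached 15.9, and a second summit of JARID2 intron 3, with the GATA site, reached 15.0 with 124 fragments over a high background of 7.34. SYT14 intron 6, in a synaptotagmin family gene, reached 13.8, and PHTF2 intron 5 reached 12.9. FRMD4A intron 2, in a gene for a scaffold of cell polarity, reached 12.2, and ADK intron 6, in the adenosine kinase gene, reached 11.7.

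A fold enrichment of at least 10 was reached by 81 members in 74 host genes. Of these, 35 were isolated, meaning that no other member lay within 12.5 kb, 25 were in first introns and 18 were in genes without a promoter peak. Over all 12165 members, 20.9% were isolated, 34.2% were in first introns and 5.99% were in genes without a promoter peak. The median width of the 81 was 736 bp. Among the 81, 3 had the base composition of a CpG island, beside 0.617% of all members. That composition was GC of at least 50% and CpG observed/expected of at least 0.6 within 150 bp of the summit. Of all members, 168 (1.38%, 1.18 to 1.60) lay within 1000 bp of the start of a gene of another type, and their median fold enrichment was 3.49.

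Most members were weak and narrow. Their median fold enrichment was 3.45, with quartiles of 3.01 and 4.04 and a range of 1.97 to 24.8. The median pileup was 19 fragments (quartiles 16 and 22, range 11 to 130), and a pileup of 19 has a 95% exact Poisson interval of 11.4 to 29.7, so that counting error at a single ordinary member was large. The median width was 271 bp. A fold enrichment of at least 5 was reached by 1092 members (8.98%), by 47.2% of promoter peaks and by 22.1% of distal intergenic peaks, which lay outside gene bodies and also more than 10000 bp from every TSS.

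Median fold enrichment was 3.45 for distal intronic peaks (95% interval of the median from order statistics 3.42 to 3.48), 3.81 for distal intergenic peaks (3.79 to 3.82) and 4.75 for promoter peaks (4.72 to 4.84), so these intervals did not overlap. For intronic peaks closer to a TSS that did not overlap 1000 bp either side of one, it was 3.46 (3.43 to 3.48). This interval overlapped that of the members. The background also moved with class: its median was 4.66 fragments for members, 4.45 for distal intergenic peaks and 3.82 for promoter peaks. The part of the background in the difference was not tested. At the edge of the rule, the 820 intronic peaks from 9000 to 10000 bp of a TSS had a median fold enrichment of 3.48, and the 772 from 10000 to 11000 bp had 3.52.

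**Figure D1:**
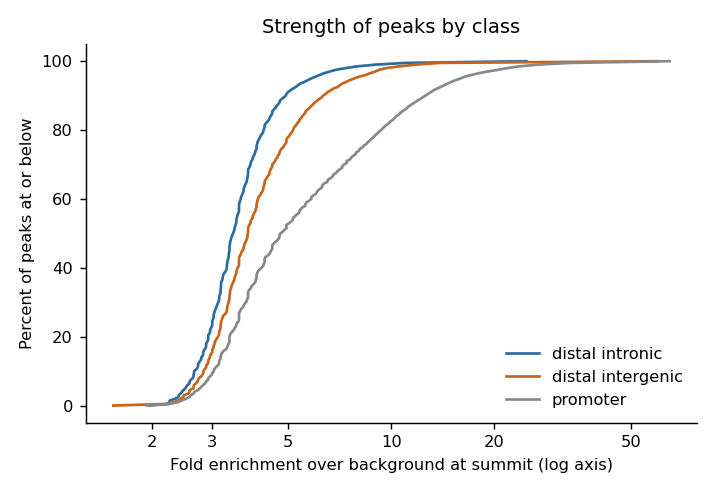
Cumulative share of peaks (y axis, percent) by fold enrichment at the summit (x axis, log scale) for the 12165 distal intronic, 4318 distal intergenic and 22943 promoter peaks of 1 ChIP library. The distal intronic curve lies to the left, with its median at 3.45, and the promoter curve to the right, with its median at 4.75.

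The weak members were nonetheless dense. Introns offered 576 Mb of eligible bases, 20.3% of the assembly without gaps, and held 21.1 members per Mb (95% exact Poisson interval 20.7 to 21.5). Distal intergenic sequence offered 906 Mb and held 4.76 peaks per Mb (4.62 to 4.91). The density of distal intronic peaks was therefore 4.43 times that of distal intergenic peaks (interval on counting error 4.28 to 4.59). Intronic peaks up to 10000 bp from a TSS, without those overlapping 1000 bp either side of any TSS, numbered 33.1 per Mb. This was 1.57 times the density of the members (1.53 to 1.60). Intron bases inside those 1000 bp stayed in the divisor, so both values are too low for intronic sequence up to 10000 bp. All such intervals treat peaks as independent, which neighbouring peaks are not, and so they are too narrow.

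The difference between introns and intergenic sequence shrank as peaks got stronger. Among peaks enriched at least 5-fold the ratio of densities was 1.80 (1.65 to 1.97), and with −log10 q of at least 5 it was 3.14 (2.98 to 3.30). Leaving out the introns of the genes with 20 or more members, an alternative chosen after the data were seen, gave 2.73 (2.63 to 2.84).

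Members lay a median of 22381 bp from the nearest TSS (quartiles 14617 and 38313), and the farthest lay 630775 bp away. Of the 12165, 43.7% were within 20000 bp, 40.3% from 20000 to 50000 bp and 12.7% from 50000 to 100000 bp, with 360 members from 100000 to 200000 bp and 33 beyond. Their place along the host transcript had a median of 40.7% of its length from the 5′ end, with quartiles of 22.6% and 63.0%. By count, members thus lay more often in the 5′ part of their hosts. The place of the eligible bases along the transcripts was not set beside this.

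Density fell with intron number. First introns held 4165 members, 31.9 per Mb of eligible bases (30.95 to 32.90). The density was 26.8 per Mb in second introns, 21.8 in the third, 16.6 in introns 4 to 5, 13.7 in introns 6 to 10 and 12.6 in later ones. First introns were 1.78 times as dense as all later introns (1.71 to 1.85). The median intron number was 2 and the highest was 89.

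Very long introns were poor in members. Introns of up to 20000 bp held 20.9 members per Mb. Those of 20000 to 50000 bp held 26.5 per Mb and those of 50000 to 100000 bp held 28.1. The density was 18.3 per Mb from 100000 to 200000 bp, 8.02 from 200000 to 500000 bp and 3.21 above that, where 46 members lay in 14.3 Mb. The median intron with a member was 46227 bp long, counted once a member.

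Introns differed widely by the host's own promoter. A gene had a promoter peak where any peak of the list overlapped 1000 bp either side of any of its TSSs, also those inside the gene. A gene with peaks along its length is thus more likely to have one by definition. The part of this in the values below was not tested. The 5470 genes with a promoter peak and eligible bases held 11436 members in 331 Mb, or 34.5 per Mb (33.9 to 35.2). The 3157 genes without one held 729 members in 245 Mb, or 2.98 per Mb (2.77 to 3.20). The ratio of densities was 11.6 (10.8 to 12.5). It was 4.64 (3.91 to 5.51) for peaks enriched at least 5-fold, and 7.03 (6.51 to 7.58) without the genes with 20 or more members. A member was found in 36.3% of the genes with a promoter peak and in 12.6% of those without, against 27.6% of all 8627 genes with eligible bases.

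Density also rose with the strength of that promoter peak. The best was taken over all peaks at any TSS, so a gene with more peaks had more from which to draw it. When genes were ranked by the fold enrichment of their best promoter peak and cut into 4 groups of about equal size, members numbered 13.5 per Mb in the lowest group, 32.0 in the next, 46.1 in the one after and 67.2 in the highest. The 4 Poisson intervals did not overlap. The median fold enrichment of the members themselves did not follow, at 3.59, 3.45, 3.37 and 3.44 from the lowest group to the highest.

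Members in genes without a promoter peak differed in other respects. Their median fold enrichment was 3.73, against 3.43 in genes with one, and 61.7% of them were isolated, against 18.3%. First introns were 1.86 times as dense as later introns in genes with a promoter peak (1.79 to 1.93) and 0.990 times in genes without (0.832 to 1.18).

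**Figure D2:**
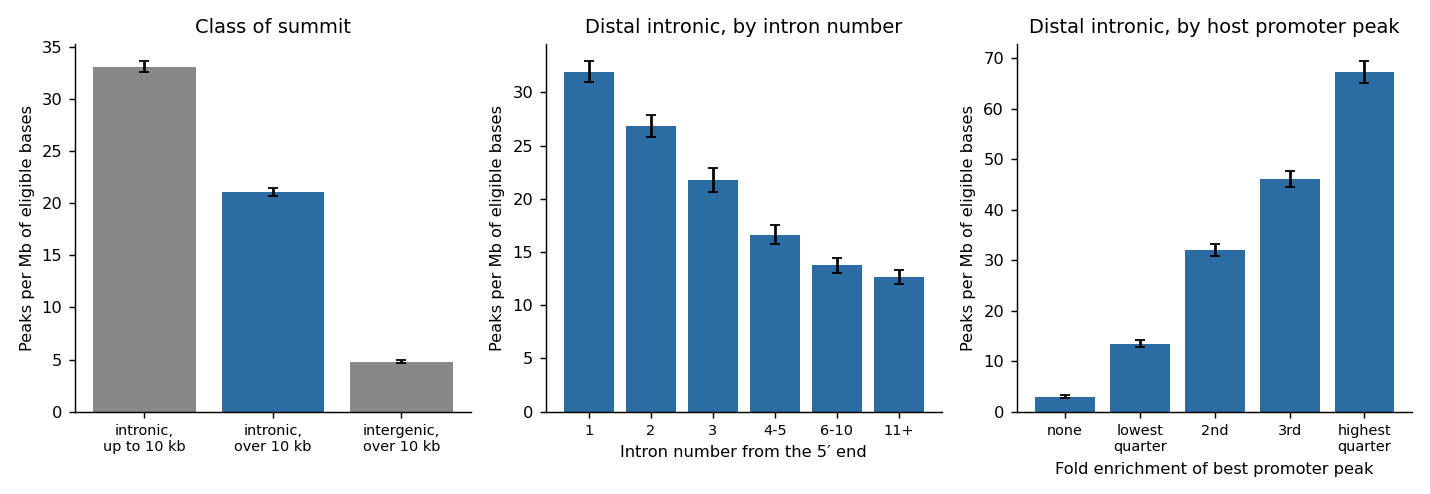
Peaks per Mb of eligible bases (y axes) by class of summit, by intron number of distal intronic peaks, and by the best promoter peak of their host genes in 4 ranked groups beside genes without one. The bar for introns up to 10000 bp leaves out peaks, but not bases, within 1000 bp of a TSS and is too low. Bars are densities in 1 ChIP library and whiskers 95% exact Poisson intervals; distal intronic density fell from 31.9 in first introns to 12.6 beyond the tenth, and rose from 2.98 to 67.2 per Mb with the promoter peak.

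Members were concentrated in few genes. Of the 8627 genes with eligible bases, 2382 (27.6%) held at least 1 member. Of these hosts, 990 held exactly 1, and the median host held 2. The 10 leading hosts held 12.0% of all members, and 179 genes, 7.51% of the hosts, held 50%. The 109 genes with 20 or more members held 4934 of them (40.6%) in 3.57% of the eligible bases, 240 per Mb against 13.02 per Mb in all other introns. All 109 had a promoter peak, which the definition above makes more likely in a gene with many peaks.

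HMCN1, which encodes the extracellular matrix protein hemicentin, led with 239 members, 661 per Mb of eligible intron (580 to 751), spread over 42 of its 106 introns. CDK14, a cyclin-dependent kinase gene, held 221 members in 12 of 14 introns. SYT1, the gene of the synaptic vesicle calcium sensor synaptotagmin 1, held 155. MYO10, the gene of the unconventional myosin of filopodia, held 153 in 20 of 40 introns. RERE, a nuclear receptor corepressor gene, held 142, and NELL2, for a secreted neuronal glycoprotein, held 122. DAB1, the adaptor of reelin signalling, held 120, PREX1, an activator of the GTPase Rac, 108, DAPK1, a death-associated kinase, 104, and MAN2A1, a Golgi mannosidase, 95.

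Per Mb the order changed. DAPK1 was the densest of the genes with at least 100000 eligible bases, at 949 members per Mb (775 to 1150), followed by MYO10 (888), MAN2A1 (857) and PREX1 (795). The Poisson intervals of these 4 overlapped, so that their order was not set beyond counting error. HMCN1 (661) and DDR2, a collagen receptor gene (655), came next, then RERE (557), NELL2 (465), SLCO5A1, an organic anion transporter family gene (463), and CDK14 (442). Together with near and exonic peaks, peak bases covered 59.1% of DAPK1, 49.8% of MAN2A1 and 45.3% of MYO10 from end to end of the transcript, but 11.9% of SYT1.

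Members of the tiled genes were close to each other and ordinary in height. The median distance between neighbouring members was 1012 bp in HMCN1, 925 bp in MYO10 and 848 bp in PREX1, and at most 1469 bp among the 10 leading hosts. Median fold enrichments in these hosts ran from 3.14 in NELL2 to 3.88 in MYO10, around the 3.45 of all members. Background moved unevenly with them. Its median was 6.27 fragments in HMCN1, 5.73 in NELL2 and 5.60 in SYT1, above the 4.66 of all members, and 3.73 in MYO10, below it. The part of background in these counts was not tested.

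**Figure D3:**
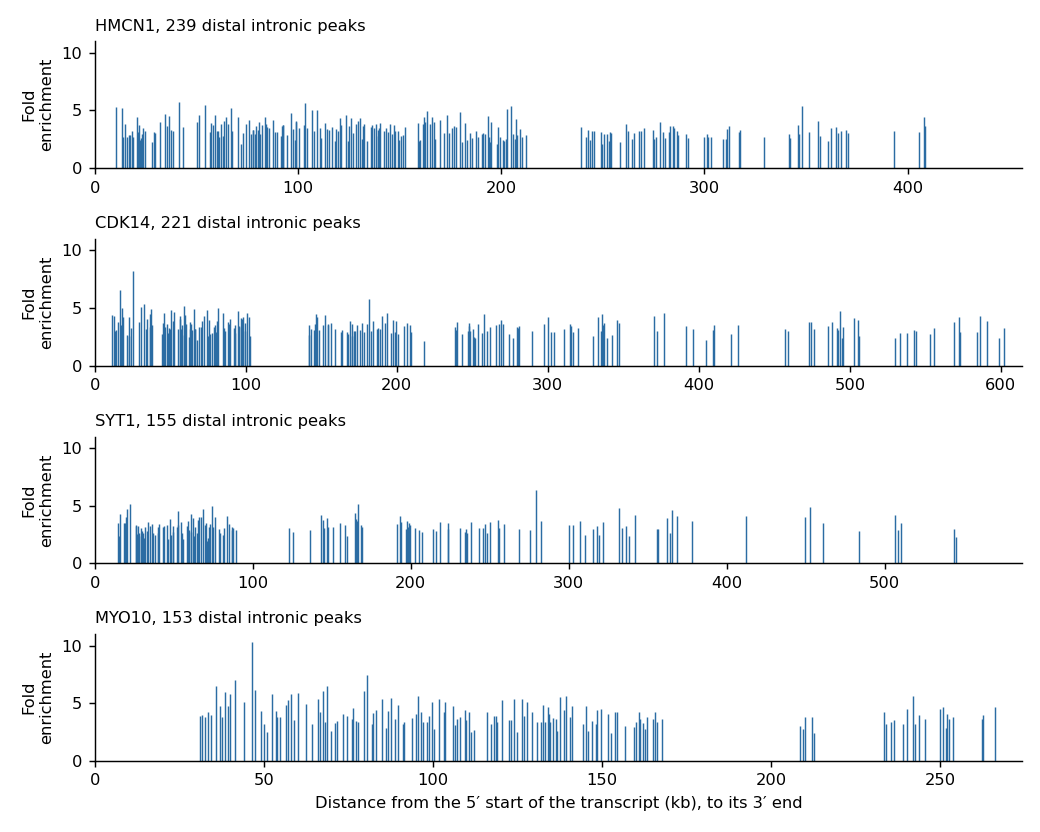
Distal intronic peaks of the 4 leading host genes by distance of the summit from the 5′ start of the transcript (x axis, kb) and fold enrichment (y axis), 1 line a peak, in 1 ChIP library. Peaks followed each other about every kb over long stretches, thinned toward the 3′ end and seldom passed a fold enrichment of 6 except in MYO10, whose highest reached 10.3.

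Across the 109 genes with 20 or more members, peaks of any class ran the length of the gene and fell off past its end. These genes were picked by their counts, so the profile is a description. Peaks numbered 397 per Mb in the first 10% of gene length and 173 per Mb in the last 10%. In the 10% of length just past the 3′ end the density was 99.6 per Mb, and in the next 36.2, close to the 42.6 per Mb over 1 gene length upstream. A set not picked by members, although it includes the 10 leading hosts, gave a lower profile. It was the 831 genes with a promoter peak and at least 100000 eligible bases. They had 66.4 peaks per Mb in their first 10%, 36.2 in the next 10% and 21.9 in their last. Their whole body held 30.0 per Mb, beside 26.7 upstream and 27.5 downstream. Peaks of any class include the promoter peaks by which these genes were picked, so the choice itself raised the first 10%. In 600 genes of at least 100000 eligible bases without a promoter peak, the body held 2.87 peaks per Mb. This was below the 11.8 upstream and the 19.4 downstream of them. The choice left out genes with a peak at any TSS, so it also lowered the count in the body.

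**Figure D4:**
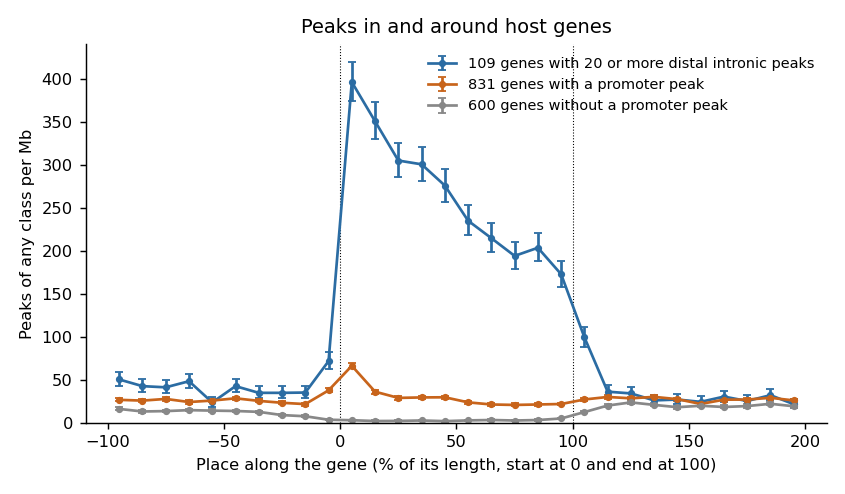
Peaks of any class per Mb (y axis) in bins of 10% of gene length (x axis, from 1 gene length upstream to 1 downstream) for 109 genes with 20 or more distal intronic peaks and for genes of at least 100000 eligible bases with (831) and without (600) a promoter peak. Points are densities pooled over genes in 1 ChIP library with 95% exact Poisson intervals. The top curve falls from 397 to 173 per Mb inside the gene, then to 99.6 and 36.2 in the bins just past its end.

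Long genes could also be empty, although less often than genes in general. Of all 8627 genes with eligible bases, 27.6% held a member. Of 148 genes with at least 500000 eligible bases, 54 held no member. The longest of these were PTPRD, a receptor phosphatase gene, with 2.10 Mb, EYS, a photoreceptor gene, with 1.81 Mb, MACROD2 with 1.80 Mb, CTNNA3, an alpha-catenin gene, with 1.47 Mb, and FHIT, a fragile site gene, with 1.44 Mb. At 0 members, a density of up to 1.43 per Mb was still allowed in PTPRD and 2.08 per Mb in FHIT, counting 3 peaks as the limit; the exact Poisson bound in PTPRD is 1.76 per Mb. All 5 except MACROD2 had a promoter peak.

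Described by gene lists, which were written from general knowledge with earlier results of these data known, the densest list was that of genes activated by the Ewing fusion. In 14 of its 30 genes there were eligible bases, and 12 of the 14 had a promoter peak. A member was held by 13 of the 14, beside 27.6% of all genes and 36.3% of those with a promoter peak. Both shares also stand beside the counts of genes in the lists that follow. The list had 344 members, 161 per Mb (145 to 179), against 21.1 per Mb over all introns and 34.5 per Mb in genes with a promoter peak. BCL11B, a zinc finger factor gene, held 73 members in 76.5 kb of eligible intron, and JAK1, a cytokine receptor kinase gene, held 55, of which 53 were in its first intron. DLGAP1, for a postsynaptic scaffold, held 51, and STEAP2, a metalloreductase gene, held 0 in 6.07 kb. Without BCL11B the list kept 132 members per Mb. Genes repressed by the fusion had 20 members, 34.5 per Mb, in 6 of 13 genes, and 19.2 per Mb without ZEB2. They included ZEB2, a repressor of epithelial genes, with 9 members in 8.02 kb and 104 peaks of all classes, ROCK2 with 6, and TGFBR2 with 2, while the neurotrophin receptor gene NTRK2 held 0 in 225 kb.

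The genes for the G2 and M phases, the best known targets of MYBL2, are mostly short, and only 0.269 Mb of their introns was eligible. They held 32 members, 119 per Mb (81.4 to 168), in 5 of 14 genes (35.7%), and all 14 had a promoter peak. Of all genes with a promoter peak 36.3% held a member, so the share was near that of such genes. The median density of the genes in this list was 0. The mitotic kinesin gene KIF11 held 11 members, TPX2, for a spindle assembly factor, held 8 and CENPF, for a kinetochore protein, 7, whereas the kinesin gene KIF14 held 0 in 51.9 kb. Genes of replication and the G1/S step had 25 members, 32.5 per Mb, in 10 of 16 genes. ATAD2, a chromatin ATPase gene, held 6, the DNA polymerase gene POLA1 held 5 and the deubiquitinase gene USP1 held 3, and WDHD1, a replication factor gene, held 0.

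Chromatin and transcription regulators had 350 members, 126 per Mb (113 to 140), in 19 of 26 genes. RERE held 142, the corepressor subunit gene TBL1XR1 held 52 and the E-protein gene TCF12 held 28, while ZEB1 held 0 in 152 kb. Without RERE the density was 82.5 per Mb.

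The YAP, TEAD and AP-1 list had 41 members, 70.5 per Mb, in 9 of 14 genes, with 15 in TEAD1, 12 in WWTR1 (TAZ) and 5 in YAP1, and 0 in the kinase gene LATS1. TGF-beta, BMP and IGF signalling genes had 134 members, 56.8 per Mb, in 18 of 29 genes. The receptor gene BMPR1A held 47, the inhibitory SMAD6 held 35 and the corepressor gene SKI held 16, all of these 16 in its first intron, while the related receptor gene BMPR1B held 0 in 292 kb.

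The lists of very long genes lay far below the others in members per Mb. A member was still held by 19 of the 25 common fragile site genes (76%) and 16 of the 30 synaptic genes (53.3%), beside 27.6% of all genes. Common fragile site genes had 147 members in 26.2 Mb, 5.61 per Mb (4.74 to 6.60), and 53 of these lay in SDK1, an adhesion molecule gene. LRP1B held 16 and DLG2 held 15. Synaptic adhesion and ion channel genes had 115 members in 17.4 Mb, 6.60 per Mb, of which the glutamate receptor gene GRIK2 held 62, and CNTN6 and NLGN1 held 8 each. Without its leading gene the density was 3.70 per Mb in the fragile site list and 3.14 in the synaptic list. Of the 25 fragile site genes 15 had a promoter peak, and of the 30 synaptic genes 8 did, beside 5470 of all 8627 genes with eligible bases.

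Density varied by chromosome. Chromosome 1 had 39.1 members per Mb of eligible intron (37.3 to 41.0), chromosome 16 had 36.0 and chromosome 12 had 31.6. Chromosome 3 had 13.3, chromosome 15 had 12.9 and chromosome X had 5.70 (4.85 to 6.66). The median background of the members was 5.52 fragments on chromosome 1 and 5.35 on chromosome 12, and 4.28 on both chromosome 16 and X. The part of background in these densities was not tested. Isolated members varied less, at 4.79 per Mb on chromosome 1, 5.11 on chromosome 16, 3.99 on chromosome 3 and 2.33 on chromosome X.

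Members joined at 12.5 kb or less between neighbouring summits formed 4194 groups, of which 2540 were a single isolated peak. Of all members, 79.1% (78.4 to 79.8) had another within that distance, and the median distance to the next member was 3159 bp. Distal intergenic peaks were clustered in 52.8% of cases (51.3 to 54.3), and their largest cluster held 36 peaks. The 186 clusters of 10 or more members held 4759 (39.1%) of them in 153 genes. Peaks of 1 library were called line by line along an enriched stretch, so that members of a cluster are not independent of each other.

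The largest cluster lay in HMCN1 (chr1:185713904-185915553, hg19) and held 174 members over 202 kb in introns 1 to 11. MYO10 held 129 members over 137 kb (chr5:16768608-16905203). The next lay in PREX1, over 115 kb (chr20:47319270-47434480). CDK14 held 89 in its second intron alone (chr7:90236911-90328278), and GALNT7, for an enzyme of O-glycosylation, held 82 over 91.1 kb in introns 1 and 2 (chr4:174100927-174192042). Peak bases covered 36.2% of the PREX1 span and 55.6% of the HMCN1 span. The median distance between neighbours ran from 822.5 bp in PREX1 to 957 bp in HMCN1, and the highest fold enrichment in these 5 clusters was 10.3, in MYO10.

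Isolated members and those of large clusters differed in several measures, given without a test since the groups were set by the data. Fold enrichment had a median of 3.51 (3.45 to 3.53) in isolated members and 3.45 (3.41 to 3.49) in clusters of 10 or more, so the medians overlapped within their intervals. A fold enrichment of at least 5 was reached by 12.6% of isolated members, 10.2% of those in clusters of 2 to 9 and 5.78% of those in clusters of 10 or more. Median width was 246, 256 and 305 bp in the same order, and median background 4.28, 4.57 and 4.71 fragments. The host had a promoter peak for 82.3%, 94.7% and 99.6% of members.

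The base composition of the members was that of ordinary intron. Within 150 bp of the summit their median GC was 39.2% (quartiles 34.6 and 44.9), equal to the 39.2% of 57055 eligible windows spread over the same introns. The same windows centred 500 bp toward higher coordinates, the flanks, had 40.2%. Median CpG observed/expected was 0.177 for members, 0.199 for flanks and 0.659 for promoter peaks. The composition of a CpG island was found at 75 members (0.617%, 0.485 to 0.772), at 0.620% of eligible windows, at 4.38% of distal intergenic peaks and at 50.7% of promoter peaks. Members with a fold enrichment of at least 5 were richer in GC (42.5%), and 2.75% of them had CpG island composition. Members of clusters of 10 or more had a median GC of 38.5% beside flanks of 40.2%, while isolated members and their flanks both had 39.9%.

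Of 25 motifs, sought as exact letters on both strands within 50 bp of each summit, 14 (56.0%) differed between summits and flanks, 12 of them higher and 2 lower at summits, at an adjusted p under 0.05 in a two-sided exact McNemar test with Benjamini-Hochberg adjustment over the list. Members of a gene share their sequence neighbourhood, so these p-values are smaller than for independent regions. By the same test, 344 (16.5%) of all 2080 6-mers were higher at summits and 305 (14.7%) lower. A call alone was thus common for short sequences and does not single out a motif. Of the motifs higher at summits, the largest ratios were those of the short ETS core and of an E-box. The E-box CAGCTG, bound by class II and tissue-specific bHLH proteins, was at 5.51% of summits (5.11 to 5.93) and 3.32% of flanks, a ratio of 1.66 (adjusted exact p = 1.79e-15). It was at 3.26% of all 570447 eligible windows of the same length and at 6.11% of all peaks. The short ETS core CCGGAA had a ratio of 1.68, at 1.20% of summits and 0.715% of flanks (adjusted exact p = 0.000362), beside 0.492% of eligible windows and 3.67% of all peaks.

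The homeobox letters TAATTA followed at 5.65% of summits and 4.46% of flanks (ratio 1.27), with 4.68% in eligible windows and 3.77% in all peaks. The AP-1 site TGANTCA was at 4.13% and 3.21% (ratio 1.29), with 3.16% and 3.36%. The TEAD site GGAATG was at 6.05% and 4.89% (ratio 1.24), with 5.35% and 5.70%. The SOX site ACAAAG was at 9.72% and 8.17% (ratio 1.19), with 8.67% and 7.87%. The GATA site AGATAA was at 8.77% and 7.55% (ratio 1.16), with 7.96% and 6.04%. The NFI site TTGGCA was at 6.13% and 5.25% (ratio 1.17), with 5.14% and 5.60%. The E-box CAGATG was at 7.13% and 6.20% (ratio 1.15), with 6.48% and 6.34%. In these sentences from AP-1 on, the first pair is summits and flanks and the second pair eligible windows and all peaks. Each of these 7 motifs lost its call among peaks enriched at least 5-fold. The AP-1 and CAGATG calls were also lost at a TSS distance of 20000 bp (adjusted exact p = 0.0658 and 0.514), and the CAGATG and SOX calls with −log10 q of at least 5 (0.0761 and 0.0707).

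The letters linked to MYBL2 itself differed little over all members. The MYB site TAACNG was at 11.7% of summits (11.1 to 12.3) and 10.6% of flanks, a ratio of 1.10 (adjusted exact p = 0.0175), with 10.2% in eligible windows and 10.1% in all peaks. The call was lost against flanks toward lower coordinates, where the ratio was 1.08, and for peaks with −log10 q of at least 5 (1.07). The CHR element TTTGAA had a ratio of 1.12, at 12.5% and 11.1%, with 11.8% in eligible windows and 9.28% in all peaks, and a ratio of 0.992 for peaks enriched at least 5-fold. The CCAAT box, read as CCAAT, had 1.08, at 14.7% and 13.7%, with 14.7% and 13.03%. The CHR call was lost with −log10 q of at least 5 (adjusted exact p = 0.451) and at a TSS distance of 20000 bp (0.514), and the CCAAT call was lost under both (0.264 and 0.801) and among peaks enriched at least 5-fold (0.575). The longer MYB site TAACGG was at 0.534% of summits and 0.543% of flanks and did not pass the test. Among members enriched at least 5-fold it was at 14 summits and 3 flanks (ratio 4.67), which also did not pass it.

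Some motif ratios were higher at strong or at isolated members and others were not. Among the 1092 members with a fold enrichment of at least 5, the short ETS core was at 3.94% of summits and 0.733% of flanks, a ratio of 5.38. The MYB site was at 12.6% and 8.42% (1.5) and the E-box CAGCTG at 9.16% and 4.40% (2.08). These 3 were the motifs that passed the test in that set. Of the other motifs higher at summits over all members, some ratios were lower in that set. They were 1.06 for the AP-1 site, 1.19 for TEAD, 1.01 for the E-box CAGATG, 1.14 for NFI and 0.992 for the CHR element. The rest were higher there without passing the test, at 1.39 for the homeobox site, 1.28 for GATA, 1.22 for SOX and 1.14 for the CCAAT box. The E-box CAGCTG was at 7.56% of isolated summits and 3.31% of their flanks (2.29), and at 3.70% and 3.11% (1.19) in clusters of 10 or more. The short ETS core had ratios of 1.81 and 0.939 in the same order, the AP-1 site 1.40 and 1.14, and the TEAD site 1.31 and 1.07. The CHR element had 1.11 and 1.14, and the CCAAT box 1.07 and 1.11. Differences between these groups were not tested. The distal intergenic peaks had 2.11 for the E-box CAGCTG, 3.09 for the short ETS core, 1.90 for AP-1 and 3.45 for the CTCF core, which had 1.38 and did not pass the test at the members.

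The remaining motifs of the list did not pass the test or were lower at summits. The NKX2 site CACTTGA had a ratio of 0.664, at 1.93% of summits and 2.91% of flanks, with 2.51% in eligible windows and 1.60% in all peaks. The SP1 core GGGCGG was at 1.09% and 1.81% (ratio 0.60), with 1.10% and 7.69%, and had a ratio of 1.33, not past the test, for a fold enrichment of at least 5. The ETS core CCGGAAGT was at 12 summits and 4 flanks, 3 GGAA units in a row, the letters to which the Ewing fusion binds in long repeats, were at 14 summits and 27 flanks, and the NRF1 core was at 0 of 12165 summits.

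**Figure D5:**
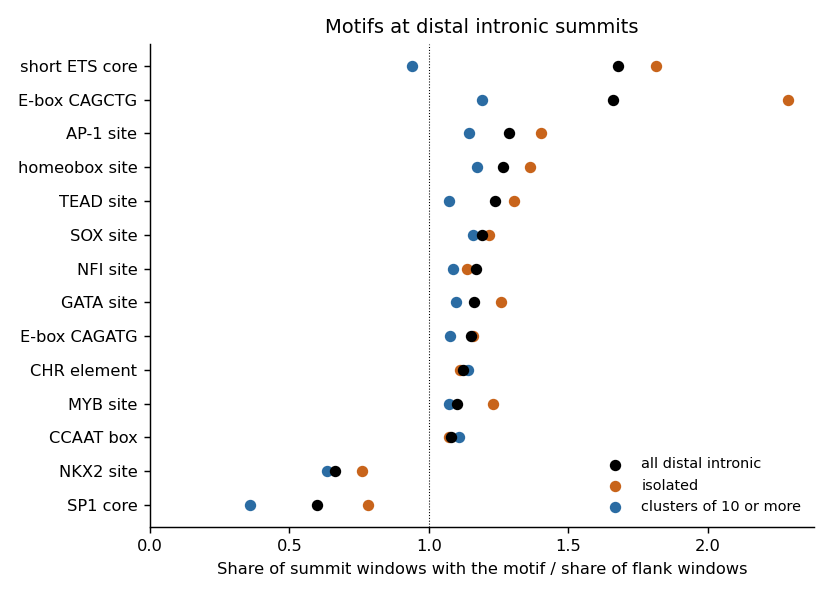
Ratio of the share of summit windows with a motif to the share of flank windows (x axis) for the 14 motifs past the test, at all 12165 distal intronic peaks, the 2540 isolated ones and the 4759 in clusters of 10 or more. Points are ratios in 1 ChIP library without error bars; the isolated peaks had the highest ratios for the E-box CAGCTG (2.29) and the short ETS core (1.81), and the clustered ones lay near 1 for most motifs.

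A search without a list covered all 6-mers, among them CCGGAA and CAGCTG. For these it repeated the comparison above, so their return is no separate support. Of 2080 6-mers, each counted with its reverse complement, 344 (16.5%) were at more summits than flanks and 305 (14.7%) at fewer, at an adjusted p under 0.05 in the same test. Of those higher, the largest ratios belonged to CCCGCG (2.05), AGCGCC (1.98), ACGCAA (1.94) and ATCGGA (1.71), which were each at under 1% of summits. CTAATC was at 5.10% of summits and 3.03% of flanks (1.69, adjusted exact p = 8.14e-15), with 3.05% in eligible windows. Its ratio was 2.63 at isolated members and 1.27 in clusters of 10 or more. CCGGAA (1.68), CAGCTG (1.66), AGCGGG (1.65), ACGCTA (1.60) and CGGAAA (1.57) completed the 10 largest ratios past the threshold, and 8 of these 10 contain CG.

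The 6-mers with the lowest ratios were GCGCGA (0.161), ATCGCG (0.185), CGCCCG (0.227), ATCCGC (0.275) and GGCGGA (0.292). GGCGGA was at 0.674% of summits, 2.31% of flanks and 1.60% of eligible windows. CTCGGC was at 1.05% of summits and 3.25% of flanks. As background, these letters occur in Alu consensus sequences, Alu being the commonest repeat of human introns, as do CACTTGA and GGGCGG. Ratios were 0.575 at isolated members and 0.250 in clusters of 10 or more for GGCGGA. The authors removed reads of mapping quality under 20, and the reference used here did not mark repeats, so the part of repeats and mapping in these differences was not tested.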

How the data were processed

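MYBL2 ChIP-seq peaks of 1 A673 ChIP library, called against 1 input library, were analysed. Per the methods of the study, the authors aligned single-end reads to hg19 with Bowtie2, kept reads of mapping quality of at least 20 and called narrow peaks with MACS2 (versions 2.1.10 and 2.0.10 in the submitters' processing notes). The deposited list gives for each peak its position, a score, a fold enrichment (a linear ratio of pileup plus 1 to background plus 1), and −log10 p and −log10 q from MACS2. What a further cleaning step removed is not given in the sources used here. The reporting summary gives a slightly larger number of called peaks than the deposited list holds, without saying why. The deposited coordinates were compared with GRCh37, and 0 peaks lay beyond a chromosome end.

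Summits were placed with GENCODE 44 lifted to GRCh37 in Python 3.11.15 (NumPy 2.4.6, SciPy 1.17.1, pandas 2.3.3). Eligible bases were all bases where a summit would have been a member, without assembly gaps. The 203 summits in introns of several genes were assigned to the shortest. Whole-number pileups solved the deposited fold enrichment and −log10 p of all 66954 peaks, with a largest misfit of 3.49e-05, while the next whole number missed by 0.00383 or more. Intervals are at 95%, exact for shares and counts and on the log scale for ratios of densities, and cover counting error only, since reads without molecular identifiers are not independent molecules. Library totals were not used here.

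Motifs and 6-mers were compared between windows of 50 bp either side of the summit and windows centred 500 bp toward higher coordinates with two-sided exact McNemar tests and Benjamini-Hochberg adjustment, a script tested on simulated data. Named were the 10 hosts with most members, the 10 densest with at least 100000 eligible bases, for each of 10 gene lists the 3 genes with most members and the one with most eligible bases among those with fewest, the 10 strongest members, the 5 largest clusters, the 10 highest 6-mers and the sequences of the rule given in the report, with chromosome 8 left out. The lowest 6-mers, the genes without members and the groups by cluster size were chosen after their values were seen. The result of 1 of the lists is not reported here. Members, lists and tests were chosen with earlier results of these data known. Alternatives were peaks with −log10 q or fold enrichment of at least 5, TSS distances of 5000 and 20000 bp, other TSSs or exons, whole peaks, other joining distances, windows and flanks.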

Additional observations from a re-analysis of the deposited data

How the results depend on the processing

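No paired analysis was possible because ChIP and input had 1 library each, which also left no replicate to leave out. A −log10 q of at least 5 left 4698 distal intronic peaks, 13.6% of all peaks, with a density ratio to intergenic peaks of 3.14, median fold enrichment differences of −2.25 (minus promoter) and −0.42 (minus intergenic), a ratio of genes with to genes without a promoter peak of 8.98, and 66.2% clustered. With a fold enrichment of at least 5 the same values were 1092, 6.79%, 1.80, −2.53, −0.13, 4.64 and 35.4%, and first introns were 1.66 times as dense as later ones. A TSS distance of 5000 bp gave a share of 26.7%, a density ratio of 4.28 and 79.9% clustered. A distance of 20000 bp gave 6848 peaks, 10.2%, a first intron ratio of 1.61 and 78.1% clustered. With TSSs of protein-coding genes only the share was 19.3% and the density ratio 4.03. A summit within 500 bp of a TSS as promoter peak gave a ratio of 7.34. Joining at 5000 or 25000 bp gave 70.6% and 83.0% clustered. Without the genes with 20 or more members, chosen after the data were seen, the density ratio was 2.73, the promoter peak ratio 7.03 and 66.9% were clustered. Directions of these results held under each alternative.

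Of 112 motif values (14 motifs under 8 alternatives), 90 kept their direction and call, 20 lost the call (6 with −log10 q of at least 5, 9 with a fold enrichment of at least 5, 4 at 20000 bp, 1 against the other flank) and 2 reversed at a fold enrichment of at least 5, the CHR element (0.992) and the SP1 core (1.33). That alternative has 1092 summits, and 3 motifs passed the test there, against 9 with −log10 q of at least 5 and 14 in all. It left 70 6-mers higher and 69 lower, 53 and 45 of them shared with the full set. Windows of 100 bp either side gave 548 higher 6-mers, of which 329 were shared. The causes were not tested. Depth limits single members: 19 fragments, the median pileup, leave a counting interval of 11.4 to 29.7.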
